A study of Caenorhabditis elegans with 4 samples.

Results

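The regions described here are the 620 binding peaks listed on chromosome II of Caenorhabditis elegans for FKH-10, a forkhead transcription factor, out of 3792 peaks on all 6 chromosomes. They are all peaks of the series-level list whose chromosome is II, chosen by position alone and not by any measured value. The data are chromatin immunoprecipitation followed by sequencing (ChIP-seq) of whole hermaphrodites at the L4 larval stage, grown at 20 °C and crosslinked with 2% formaldehyde. Each of the 4 samples came from strain OP337, which carries the unc119(ed3) allele and the transgene wgIs377. The transgene holds unc119 and fkh-10::TY1 EGFP FLAG, a tagged FKH-10, and the strain was made by bombardment. The groups are 2 ChIP libraries collected with anti-GFP antibodies and 2 input libraries, for which 10% of the same kind of extract was set aside before the immunoprecipitation. Input and ChIP samples share strain, stage and transgene, and no strain without the tag was analysed here. In the WBcel235 gene table fkh-10 is on chromosome I and unc-119 on chromosome III, so neither gene of the transgene has its native locus on chromosome II.

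Forkhead proteins bind DNA through a winged-helix domain and act as regulators of transcription in development and metabolism; PHA-4 in pharynx formation and DAF-16 in stress resistance and lifespan are the best known of the worm family. A ChIP-seq peak is a stretch in which immunoprecipitated fragments pile up above a control, and in whole animals it averages over all cells that express the tagged protein. Worm autosomes have a gene-rich centre with little recombination, flanked by arms that recombine more and hold more repeats. These features give the background for the description by arm and centre, and none of them was measured here.

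Peaks are given by their first and last bases on WormBase build WS220, each with 1 score that behaves as a q-value (an adjusted p-value), in which smaller means stronger. Replicate 1 listed 201 peaks on chromosome II and replicate 2 listed 407, of 1169 and 2468 in all. Whether the replicates came from separate cultures is not stated in the labels, so a difference between them may be technical. Read depth is unknown, and a q-value depends on it, so strength is given as a rank within 1 list. Peaks of the same library are not independent replicates; differences between parts of the chromosome are therefore given with exact Clopper-Pearson 95% intervals, which cover counting error only, and without a p-value. A run of 11 peaks at 1644473 to 1674211, the block, differed between the replicates in a way the rest of the chromosome did not; it was singled out with its values known and is described apart, and the values it moves are given with and without it.

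Peaks were densest in the centre of chromosome II and sparsest in its left arm. The 3 segments are equal parts of the span from base 131 to base 15256325, the first and last bases covered by any list. They are parts of that span, not mapped recombination domains. The left arm (131 to 5085529) held 127 series-level peaks, the centre (5085530 to 10170927) held 294 and the right arm (10170928 to 15256325) held 199. Per megabase these are 24.97 peaks in the left arm, 57.8 in the centre and 39.1 in the right arm. The centre thus held 47.4% of the peaks (interval 43.4 to 51.4), the right arm 32.1% (28.4 to 35.9) and the left arm 20.5% (17.4 to 23.9). These intervals do not allow for peaks that lie close together, and the differences were not tested. Without the block the left arm held 116 peaks, or 22.8 per Mb.

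The replicates had the same order of segments. Replicate 1 had 7.87 peaks per Mb in the left arm, 18.5 in the centre and 13.2 in the right arm. Replicate 2 had 15.3, 40.3 and 24.4 peaks per Mb in the same order. Dividing the density of the centre by that of both arms gave 1.80 for the series-level peaks, 1.76 for replicate 1 and 2.03 for replicate 2. Without the block the ratios were 1.87, 2.09 and 2.06. The block held 17 of the 40 left-arm peaks of replicate 1, and the other 23 amount to 4.52 peaks per Mb of the arm.

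When the span was cut into 10 equal bins, numbered from the left end, the series-level density was 22.9 peaks per Mb in bins 1 and 2 and 26.2 in bin 3. Without the block, bin 2 had 15.7. It was 52.4 in bin 4 and highest in bin 5, at 63.6. The right side was uneven, with 49.2 peaks per Mb in bin 8, 23.6 in bin 9 and 43.9 in bin 10. Both replicates had this dip and return as well. Replicate 1 had 5.90 peaks per Mb in bin 9 and 13.1 in bin 10, and replicate 2 had 14.4 and 26.2. The right end was therefore denser than the left end in all 3 lists, where bin 1 had 4.59 peaks per Mb in replicate 1 and 15.7 in replicate 2.

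**Figure D1:**
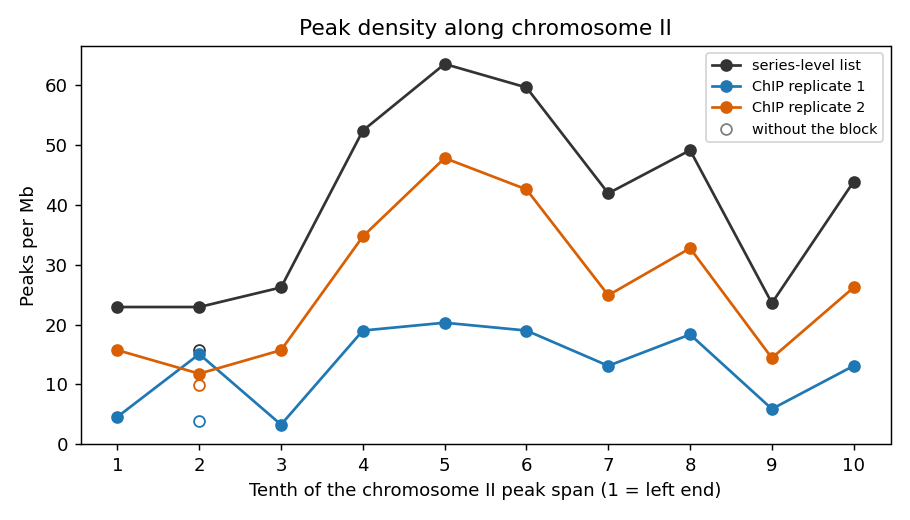
Peaks per Mb (y axis) in each of 10 equal bins of the chromosome II span (x axis, left end at 1) in the series-level list and in each ChIP replicate; open circles give bin 2 without the block. The series-level list is highest in bin 5 at 63.6 per Mb and is at 23.6 in bin 9, and replicate 1 has 15.1 per Mb in bin 2 with the block and 3.93 without it.

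The median gap between adjoining series-level peaks, from the last base of one to the first base of the next, was 9.05 kb, with quartiles of 2.48 and 32.6 kb, and 9.26 kb without the block. The mean gap was 24.2 kb. Of the 619 gaps, 84 (13.6%) were at most 1 kb and 25 were above 100 kb. Without the block it was 77 (12.7%) and 23 of 607. No gap was shorter than 202 bp, 232 bp in replicate 1 and 219 bp in replicate 2. The distance at which the peak caller joins adjoining calls is not given in the sources used here. Gaps were shortest in the centre, with a median of 8.03 kb, against 9.96 kb in the right arm and 18.9 kb in the left arm outside the block. Median gaps in replicate 2 were 10.3 kb in the centre, 15.5 kb in the right arm and 24.2 kb in the left arm outside the block. In replicate 1 they were 21.1, 45.8 and 98.6 kb.

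**Figure D2:**
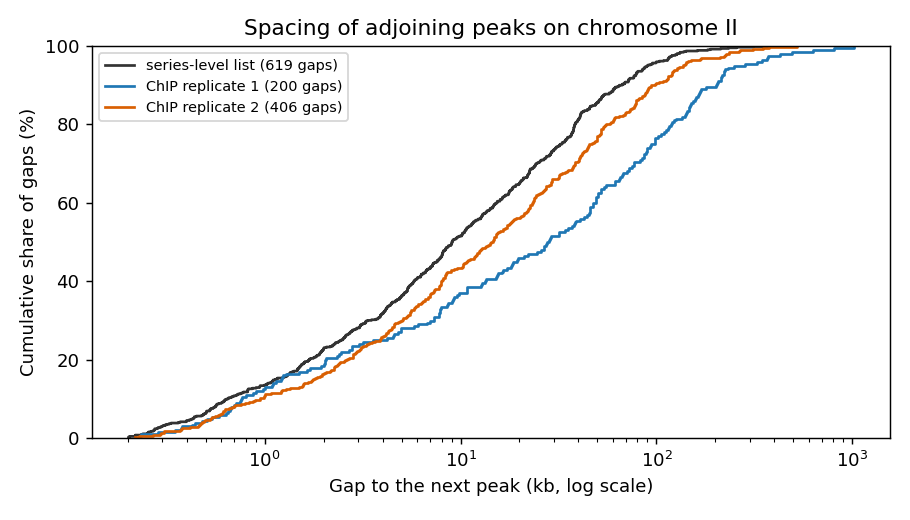
Cumulative share of gaps (y axis, percent) against the length of the gap between adjoining chromosome II peaks (x axis, kb on a log scale) in the 3 lists, block included. The median is 9.05 kb in the series-level list, 14.4 kb in replicate 2 and 28.0 kb in replicate 1, and none of the lists has a gap under 202 bp.

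Outside the block, peaks within 1 kb of each other formed 532 clusters, of which 477 were single peaks, 42 were pairs and 13 had 3 or more peaks. Clusters of 2 or more peaks held 29.6% of the peaks of the centre, 13.6% of those of the right arm and 15.5% of those of the left arm. A pair of clusters had 6 peaks each. The first, at 5946429 to 5952420, held 6 series-level peaks of 397 to 929 bp, the strongest at 5947312 to 5947975 (q = 4.05e-12). Replicate 2 had a peak at 5 of them and replicate 1 at 1, at 5949686 to 5950106, which replicate 2 lacked. No peak of this cluster was therefore in both replicate lists. The second, at 7324534 to 7328737, ranged from a peak of 11 bp to one of 611 bp. Its peaks at 7324957 to 7325491 (q = 7.05e-13) and 7326809 to 7327419 (q = 9.08e-13) were in both replicate lists, and the 4 others were in 1 list or none.

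Of 153 windows of 100 kb, 10 held 10 or more series-level peaks and together 122 peaks, 19.7% of the list, while 15 windows held none. The 3 most crowded were 7900001 to 8000000 with 18 peaks, 6900001 to 7000000 with 17 and 5900001 to 6000000 with 14, all in the centre. In the first, 6 of 18 peaks were in both replicate lists and 4 in neither, in the second 6 of 17 and 4, and in the third 4 of 14 and 0. Over all 620 peaks of chromosome II, 25.6% were in both and 32.3% in neither, beside 27.2% and 35.2% of all 3792. In the window at 6900001, q-values ran from 2.07e-19 at 6992748 to 6993334 to 8.61e-04 at 6928373 to 6928817. The 15 windows without a series-level peak held no peak of either replicate.

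The longest stretch without a series-level peak was 384.8 kb, from 1674212 to 2058998, which begins at the right edge of the block. The next were 310.5 kb from 774314 to 1084853 and 256.7 kb from 3553840 to 3810578. All of them lie in the left arm, and none held a peak of either replicate. In the right arm the longest was 212.9 kb, from 13596782 to 13809710, and in the centre the longest gap was 141.4 kb. In replicate 1 the longest left-arm gap was 1022 kb, also from the last peak of the block, and the longest one away from the block was 802 kb.

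The strongest peak of chromosome II lay in the centre at 5844471 to 5845156, 686 bp wide (q = 6.45e-37, rank 36 of the whole series-level list). Replicate 1 had it at rank 1 of 201 (q = 9.73e-18) and replicate 2 at rank 2 of 407 (q = 1.54e-21). Where a series-level peak overlapped several replicate peaks, the values given are those of the strongest. Outside the block the second was in the right arm, at 11749081 to 11750411 (1331 bp, q = 3.99e-31), with q = 7.14e-13 (rank 7) for replicate 1 and q = 1.64e-16 (rank 12) for replicate 2. The third was in the centre, at 7641947 to 7642714 (768 bp, q = 4.68e-31), with q = 4.90e-16 (rank 2) for replicate 1 and q = 3.87e-16 (rank 14) for replicate 2. All 3 were among the first 14 peaks of chromosome II in every list.

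Other peaks ranked high in 1 replicate more than in the other. The peak at 10563237 to 10563714 (478 bp, series-level q = 2.83e-28) had rank 1 in the replicate 2 list (q = 7.62e-24) and rank 13 in that of replicate 1 (q = 1.21e-10). That at 5660806 to 5662236 (1431 bp, series-level q = 1.69e-28) ranked 3 in replicate 2, where it was 1 peak (q = 3.46e-19), but its stronger part ranked 71 in replicate 1 (q = 6.22e-06), where it was 2 peaks. The wide peaks at 11633811 to 11636644 (2834 bp) and 5334763 to 5337428 (2666 bp) were 2 peaks in each replicate. The first ranked 6 in the series-level list but 39 and 70 in replicates 1 and 2, and the second 8 against 37 and 23.

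The remaining peaks among the 12 strongest that both replicates shared outside the block had series-level q-values from 1.30e-29 to 8.41e-26. They are 5543303 to 5544376 (ranks 4 and 6 in replicates 1 and 2), 7593074 to 7593629 (5 and 18) and 5860546 to 5861099 (12 and 10) in the centre. A further one in the centre is 8559124 to 8559519 (21 and 7). The left arm has 1 of the 12, at 4133262 to 4133775, with rank 8 (q = 8.09e-13) in the replicate 1 list and rank 33 (q = 1.93e-12) in that of replicate 2. In all, 8 of the 12 lay in the centre, 3 in the right arm and 1 in the left arm.

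Outside the block, the left arm had the smallest share of strong peaks in every list. The strongest 155 of the 620 peaks made up 25.2% of the peaks of the centre, 26.1% of those of the right arm and 19.0% of those of the left arm outside the block. The median q-value was 1.55e-06 in the centre, 2.24e-06 in the right arm and 1.26e-05 in the left arm outside the block. The strongest 101 peaks of replicate 2 made up 24.4%, 27.4% and 21.3% of the segments in the same order. The strongest 50 of replicate 1 made up 25.5%, 22.4% and 13.0%, the last being 3 of 23 peaks.

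Of the 620 series-level peaks on chromosome II, 159 (25.6%, interval 22.2 to 29.3) overlapped a peak of both replicate lists by at least 1 bp, beside 27.2% of all 3792 series-level peaks. Another 232 (37.4%) overlapped replicate 2 alone, beside 35.1% of all, and 200 (32.3%, interval 28.6 to 36.1) overlapped neither, beside 35.2%. These shares are near those of the whole list, which includes chromosome I, with 13.9% in both and 60.5% in neither. On III, IV, V and X the share in both was 26.5 to 31.5%, above that of II. Their share in neither was 28.7 to 35.2%. On chromosome II, replicate 1 alone accounted for 29 peaks (4.68%), beside 2.45% of all, and 7 of the 29 lay in the block. Outside the block it was 22 of 609 (3.61%, interval 2.28 to 5.42).

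Presence in the replicates followed strength. Whether the series-level list was called from the same reads is not stated. If it was, its q-values are not independent of presence in the replicate lists. Of the strongest 155 peaks, 126 (81.3%) were in both lists, 25 in replicate 2 alone, 4 in replicate 1 alone and 0 in neither, for which the exact interval reaches 2.35% and the limit of 3 counts is 1.94%. Without the block, 123 of 148 (83.1%) were in both, 25 in replicate 2 alone and 0 in replicate 1 alone. Of the next 155, 32 (20.6%) were in both lists and 7 in neither. Of the third 155, 0 were in both and 63 (40.6%) in neither, and of the weakest 155, 1 was in both and 130 (83.9%) in neither. That 1 peak is the first of the chromosome, at 131 to 500 (q = 1.33e-04, rank 477 of 620). It had nearly the same edges in each list, 131 to 500 in replicate 1 (q = 4.80e-04) and 134 to 500 in replicate 2 (q = 3.50e-04). At the right end the last series-level peak, at 15255720 to 15256325, was in neither replicate.

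**Figure D3:**
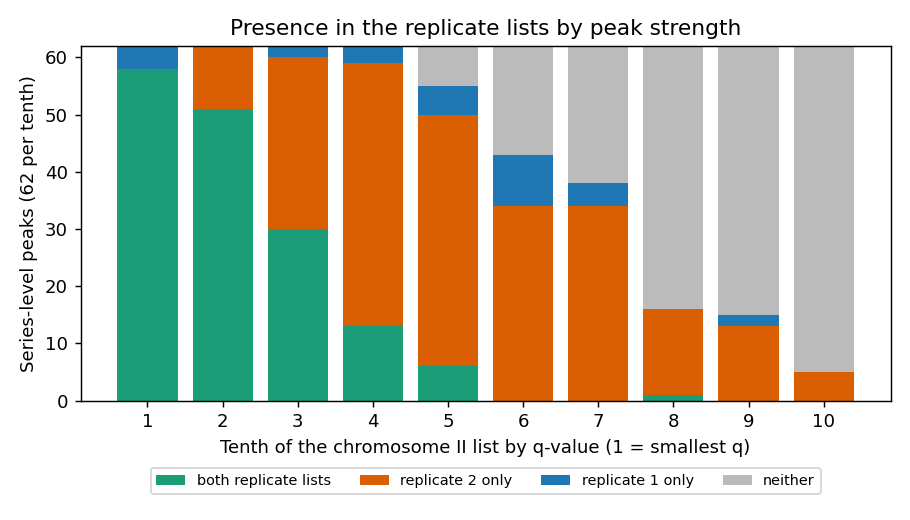
Number of series-level peaks (y axis) in both replicate lists, in 1 of them or in neither, for 10 groups of 62 chromosome II peaks ordered by q-value (x axis, strongest at 1). Of the strongest 62 peaks, 58 are in both lists and 4 in replicate 1 alone, and of the weakest 62, 57 are in neither.

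The 4 of the strongest 155 peaks found in replicate 1 alone were all in the block. Outside the block, the strongest peaks found in replicate 1 alone were 6916371 to 6917079 (q = 3.36e-09, rank 167), 5327663 to 5328314 (q = 9.97e-09, rank 189) and 5346334 to 5346641 (q = 6.94e-08, rank 228). The first of these adjoins, at a distance of 287 bp, a peak at 6915432 to 6916083 that both replicates had. The strongest found in replicate 2 alone ranked higher, at 773867 to 774313 (q = 3.79e-14, rank 77), 1084854 to 1085294 (q = 1.63e-13, rank 82) and 5947312 to 5947975 (rank 107). The former 2 are the peaks on either side of the gap of 310.5 kb in the left arm. The strongest found in neither list were 11008605 to 11008885 (q = 5.70e-07, rank 271), 6959703 to 6960080 (q = 9.12e-07, rank 286) and 14361367 to 14361393 (q = 9.58e-07, rank 288), the last only 27 bp wide.

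By segment, 78 of 294 peaks in the centre were in both lists (26.5%, interval 21.6 to 32.0), 57 of 199 in the right arm (28.6%, 22.5 to 35.5) and 21 of 116 in the left arm outside the block (18.1%, 11.6 to 26.3). Among the strongest 155 peaks the shares were 63 of 74 in the centre (85.1%), 46 of 52 in the right arm (88.5%) and 14 of 22 in the left arm outside the block (63.6%, interval 40.7 to 82.8). The other 8 of those 22 left-arm peaks were in replicate 2 alone. The interval of the right arm was 76.6 to 95.6, and the difference itself was not tested. Among the same peaks outside the block, 38 of 46 in clusters (82.6%) and 85 of 102 single ones (83.3%) were in both lists.

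Between the replicates themselves, a larger share of replicate 1 peaks than of replicate 2 peaks had a counterpart. The lists held 201 and 407 peaks, and 159 of the 161 overlapping pairs were 1 peak to 1. The longer list therefore had to have the lower share. With replicate 2 at the length of replicate 1, the shares were 63.2% of replicate 1 and 62.7% of replicate 2. Of the 201 replicate 1 peaks, 161 (80.1%, interval 73.9 to 85.4) overlapped replicate 2, beside 90.3% of all 1169. Without the block it was 158 of 184 (85.9%, interval 80.0 to 90.6). In the other direction 160 of 407 replicate 2 peaks (39.3%, interval 34.5 to 44.2) overlapped replicate 1, beside 42.8% of all 2468. Of the 40 replicate 1 peaks without a counterpart, 14 lay in the block. By strength, 45 of the strongest 51 replicate 1 peaks and 31 of the weakest 50 were shared. The rest of the strongest 51 all lay in the block, so outside it every one of them was shared. In replicate 2, 86 of the strongest 102 (84.3%) and 10 of the weakest 101 (9.90%) were shared.

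Outside the block, the strongest replicate 1 peak without a counterpart in replicate 2 was 5327663 to 5328324 (q = 5.68e-06), at rank 70 of 201. It was followed by 11371148 to 11371413 (rank 97) and 5346336 to 5346636 (rank 101). In replicate 2 the strongest without a counterpart in replicate 1 were 773884 to 774332 (q = 2.70e-12, rank 34 of 407), 13872414 to 13872795 (q = 4.46e-12, rank 37) and 13834178 to 13834707 (q = 8.58e-11, rank 52). The series-level list covered all of these. It covered 199 of 201 replicate 1 peaks (99.0%), beside 99.1% of all, and 394 of 407 replicate 2 peaks (96.8%), beside 97.0%. The peaks it lacked were weak ones: 2987301 to 2987438 and 14735528 to 14735608 in replicate 1 (ranks 173 and 199 of 201), and 13 in replicate 2, the strongest being 2971882 to 2972444 (rank 305 of 407), 5942480 to 5942908 (rank 310) and 11440040 to 11440610 (rank 313).

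Overlapping peaks of the replicates nearly coincided. Among the 159 pairs in which 1 peak of each replicate met only the other, the centres lay a median of 33.5 bp apart (quartiles 14.2 and 68.2 bp), and 142 (89.3%) lay within 100 bp. The largest shift was 388 bp, in the block. Replicate 2 peaks were wider in 110 of the pairs (69.2%), with a median width of 419 bp against 371 bp. For the 153 series-level peaks that met exactly 1 peak of each replicate, the median width was 493 bp. The medians of the replicate peaks they met were 370 bp in replicate 1 and 398 bp in replicate 2. The replicate 1 peak lay wholly inside the series-level peak in 139 of the 153 and the replicate 2 peak in 113.

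Strength in the replicates was related but loosely. Across the 161 shared replicate 1 peaks and their counterparts, Spearman's rho of −log10 q was 0.54 and Pearson's r was 0.53, or 0.48 without the 2 peaks farthest from the median of replicate 1. These describe peaks of 1 pair of libraries, whose depths are unknown, and no p-value is given. Without the block rho was 0.59. The widest disagreement was the replicate 1 peak at 1648377 to 1650247 in the block, rank 3 of 201 there and rank 391 of 407 in replicate 2. Outside the block, 6915510 to 6915658 ranked 184 of 201 in replicate 1 (q = 8.05e-04) while its counterpart ranked 38 of 407 in replicate 2 (q = 4.77e-12). In the opposite direction 10706133 to 10706390 had rank 53 in replicate 1 (q = 1.01e-06) but its counterpart had rank 367 in replicate 2 (q = 5.59e-04).

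**Figure D4:**
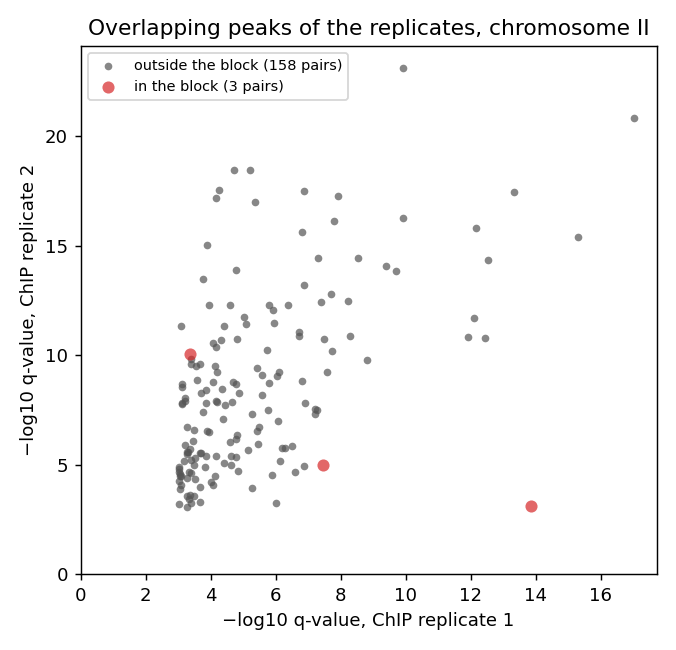
−log10 q-value in ChIP replicate 1 (x axis) against replicate 2 (y axis) for the 161 pairs of overlapping chromosome II peaks, 1 point a pair, with the 3 pairs in the block in red. The points rise together but scatter widely (Spearman's rho 0.54), and the block pair at the lower right has q = 1.41e-14 in replicate 1 and 7.59e-04 in replicate 2.

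The median width of the 620 series-level peaks was 360.5 bp (quartiles 263.5 and 493 bp), against 370 bp in replicate 1 and 360 bp in replicate 2. Outside the block the medians were 357 bp in the centre, 350 bp in the right arm and 372.5 bp in the left arm, a narrow range. Stronger peaks were wider, with Spearman's rho of 0.65 between width and −log10 q over the 620 peaks, 0.61 over the 201 of replicate 1 and 0.63 over the 407 of replicate 2. This is a description across peaks of the same libraries. Of the narrowest 155 peaks 1 was in both replicate lists, and of the widest 155 it was 83 (53.5%). Among the strongest 155 peaks by q-value, 9 of 15 below the median width of the list (60.0%, interval 32.3 to 83.7) and 117 of the 140 wider ones (83.6%, interval 76.4 to 89.3) were in both. The 15 narrower ones were also weaker, with a median q of 2.12e-10 against 1.44e-14. Width and strength are therefore not told apart here.

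At the extremes, 25 peaks were at least 1000 bp wide and 24 were under 100 bp. The widest outside the block were 10548355 to 10551456 (3102 bp, q = 1.70e-19), 11633811 to 11636644 and 5334763 to 5337428, and each of them was 2 peaks in both replicates. All 17 peaks of at least 1000 bp outside the block were in at least 1 replicate list, and 14 were in both. Of the 24 peaks under 100 bp, 20 were in neither list and 0 in both. The narrowest was 7 bp, at 5341331 to 5341337 (q = 2.69e-04). Among the narrow peaks the strongest was the 27 bp peak at 14361367 to 14361393.

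The block at 1644473 to 1674211 (29739 bp) had more peaks in replicate 1 than in replicate 2, the reverse of the rest of chromosome II. It held 11 series-level peaks covering 19984 bp, 17 replicate 1 peaks covering 12724 bp and 3 replicate 2 peaks covering 1571 bp. Replicate 2 thus had 0.12 times the covered bases of replicate 1 here, against 2.29 times on the rest of chromosome II. By number of peaks the ratios were 0.18 and 2.20. The block compares 1 library with 1 and was chosen for this difference, so there is no test of it. It made up 14.8% of all bases in replicate 1 peaks on chromosome II, 7.39% of those in the series-level list and 0.93% of those in replicate 2.

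Within the block the series-level peaks were wide and strong. Their median width was 1810 bp, against 359 bp outside it. The strongest was 1651878 to 1655993 (4116 bp, q = 1.05e-35, rank 2 on chromosome II), the widest peak of the chromosome; it met 3 peaks of replicate 1 and none of replicate 2. The next, 1666293 to 1669197 (2905 bp, q = 9.23e-32, rank 3), likewise met 3 peaks of replicate 1 and none of replicate 2. Then came 1669433 to 1671228 (1796 bp, q = 1.37e-28, rank 9), which met both lists. It did so partly at different places, since its stronger replicate 1 peak, 1670525 to 1671148 (q = 3.14e-08), did not overlap the replicate 2 peak at 1669528 to 1670445 (q = 9.13e-11); only a replicate 1 peak of 114 bp, at 1669542 to 1669655 (q = 4.32e-04), did. The series-level peak at 1644473 to 1646282 (q = 1.08e-23, rank 27) met both lists too, where the replicate 1 peak at 1644998 to 1645444 and the replicate 2 peak at 1644759 to 1645040 shared 43 bp.

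The third that met both lists was 1647997 to 1650466 (2470 bp, q = 2.61e-22, rank 30), which holds the strongest replicate 1 peak of the block (q = 1.41e-14). The others were 1663156 to 1665724 (q = 1.01e-23, rank 26), 1671984 to 1674211 (q = 1.74e-21, rank 31), 1646593 to 1647721 (q = 6.54e-09, rank 179), 1661235 to 1661480 (q = 1.33e-08, rank 194) and 1656288 to 1656734 (q = 1.24e-06, rank 292), all met by replicate 1 alone. The weakest, 1657018 to 1657285 (q = 2.10e-04, rank 511), was in neither. In all, 7 of the 11 were in replicate 1 alone, 3 in both, 1 in neither and 0 in replicate 2 alone. The nearest series-level peak to the left was 124.3 kb away and to the right 384.8 kb away. In the 500 kb to the left the series-level list had 11 peaks, replicate 1 had 2 and replicate 2 had 5. In the 500 kb to the right it had 1 peak and the replicates had none.

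**Figure D5:**
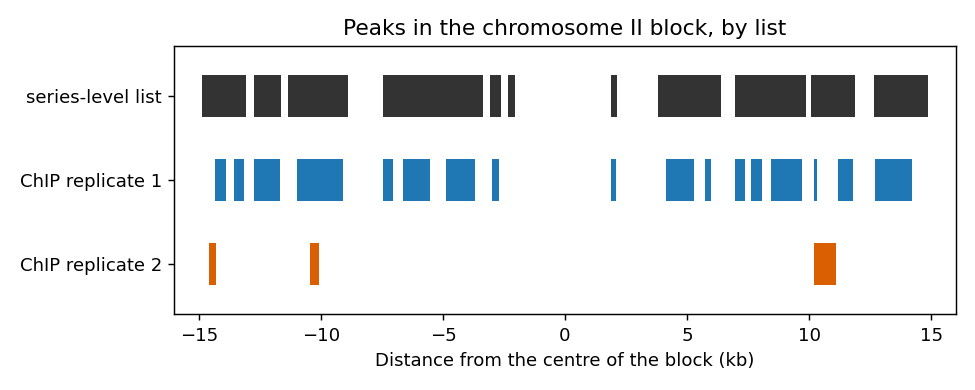
Peaks of the block as bars to scale (x axis, distance from the centre of the block in kb) in the series-level list and in each ChIP replicate (rows). The 17 replicate 1 peaks all lie under series-level ones, with none under the weakest of the 11 and a longest gap of 4597 bp, while replicate 2 has 3.

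Chromosome II held 16.4% of the series-level peaks on 15.3% of the span. Its 40.6 peaks per Mb lay between chromosomes V (29.9) and X (48.2), the lowest and the highest, and its density was 1.16 times that of the other autosomes together. Chromosome III was also denser than II, at 45.8. The density of the centre over that of both arms was 1.80 on II, against 1.95 on I, 1.27 on III, 1.61 on IV, 2.01 on V and 0.88 on X. The median peak width of II equalled that of III (360.5 bp) within a range of 354 to 401 bp over the others. The median gap of II, 9.05 kb, was below the 10.3 to 15.3 kb of the other chromosomes, and its share of gaps of at most 1 kb, 13.6%, was above their 9.05 to 12.1%. The left arm held 20.5% of its peaks, where the left segment of the others held 25.8 to 36.1%. The share of its replicate 1 peaks found in replicate 2, 80.1% or 85.9% without the block, was below the 89.6 to 94.7% of the others. One chromosome has no replicate, so none of these differences was tested.

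At like strength, recurrence on chromosome II can be set beside that on the other chromosomes, with and without chromosome I, whose shares in both lists were lower. Among the strongest 948 peaks of the whole series-level list, 83.0% of 147 peaks on II were in both lists, against 86.9% of 801 on all others. It was 63.4% of 101 on I and 90.3% of 700 on III, IV, V and X. The 147 peaks on II include peaks of the block, and the 4 of the 147 in replicate 1 alone all lay there. Among the next 948 the share in both lists was 22.5% of 160 on II against 21.7% of 788 on all others, with 1.38% of 145 on I and 26.3% of 643 on III, IV, V and X. The direction of this difference thus turned with chromosome I. Among the weakest 948, 83.4% of 163 peaks on II, 85.0% of 785 on all others and 82.8% of 667 on III, IV, V and X were in neither list. The strongest peak of II ranked 36, below the best ranks of the other chromosomes, which were 1 on I, 3 on X, 7 on IV, 11 on III and 29 on V. Chromosome II had 14 of the 100 strongest peaks of the series, 3 of them in the block, against 12 or 13 on I, III, IV and V and 37 on X.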

How the data were processed

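Anti-GFP ChIP-seq peaks of FKH-10::GFP worms were taken from 3 deposited lists, 1 for each of the 2 ChIP libraries and 1 for the whole series. The values of the 2 input libraries were not used here. The file headers name build WS220 and the peaks' source field names PeakSeq. The PeakSeq version and threshold, the aligner, how the input was used and any pooling behind the series-level list are not given in those sources. The deposited score of each peak behaves as an adjusted p-value (q-value); no chromosome II peak of the series-level list exceeds 0.000978. The files give no counts, so depth is unknown.

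Peaks with chromosome II were taken in Python 3.11.15 (numpy 2.4.6, pandas 2.3.3, scipy 1.17.1), and segments were assigned by a peak's midpoint. A peak was present in a list if it overlapped a peak there by at least 1 bp. The smallest q-value was the strongest, with ties broken by the number in the peak's name. The block is the chain of series-level peaks on II with gaps of at most 5 kb that covers at least 10 kb; the next longest chain covered 7093 bp. Named peaks are the 12 strongest in both lists outside the block, the 3 strongest in each other class, the 3 strongest replicate peaks without a counterpart in the other replicate or in the series-level list, the 5 widest, those of the block, the 3 most crowded windows and the 3 longest gaps; other peaks named were chosen after their values were seen. Overlap, merging and segment functions were tested on simulated lists. The members, the segments, the block and these rules were chosen with earlier results of these data known. Genes and sequence are not given, since no annotation or genome of WS220 was used here.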

Additional observations from a re-analysis of the deposited data

How the results depend on the processing

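Of 45 alternative values for 12 results, 6 of them chosen after seeing the data, 32 stayed within the spread set for them (1 SD between the replicates, the 95% interval, 1.5 times for counts and the block ratio, 0.05 for rho). Where that spread was 1 SD between the replicates, the values of the replicate lists were judged against a spread made from those same values. For them, staying within it does not measure robustness. In the stronger 50% of peaks, by q-value or by peak number, 51.0% were in both lists against 25.6% and 2.26% were in neither against 32.3%. By q-value, their median width was 440.5 bp. With replicate 2 at the length of replicate 1, sharing was 63.2% of replicate 1 and 62.7% of replicate 2. Without the block, 85.9% of replicate 1 peaks were shared. In the replicate lists alone, block included, the median gap was 28.0 kb and the median width 370 bp in replicate 1. The centre-to-arm ratio was 2.03 in replicate 2. The density of II over the other autosomes was 1.31 in replicate 1, whose 13.2 peaks per Mb on II were 12.1 without the block. The cause was not tested for any of these, apart from the shorter list and the left-out block. Leaving out 1 replicate gave 188 to 391 series-level peaks with a counterpart, against 420 with both; the low value is without replicate 2. No paired analysis was possible because only the peak lists of the ChIP libraries were used, with no values of the input libraries. Since depth is unknown, absence of a peak from the other replicate and a signal below its detection limit cannot be told apart.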
